A study of Xenopus tropicalis with 9 samples.

Results

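Bmp ligands and the proteins that restrain them were followed in *Xenopus tropicalis* embryos at stage 14, the early neurula. The genes were chosen by name, though with earlier results of these data known. They are the ligands *bmp2*, *bmp4*, *bmp7* and *admp*, the secreted antagonists *chrd*, *nog*, *fst* and *grem1*, the secreted feedback inhibitor *szl* and the pseudoreceptor *bambi*. Of these 10 names, 9 are listed in the deposited table of 23633 genes. The name *bmp7* has no row of its own, and the values of *bmp7.1* and *bmp7.2*, which carry *bmp7* as an older symbol, are given beside the others. All 9 listed genes had a mean of at least 1.5 in a group, the limit for testing, but *grem1* reached it in Fgf4 overexpressing embryos alone and so was not tested in Cic knockdown against control.

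RNA was sequenced from whole embryos of the Nigerian strain in 9 libraries, 3 per group. Fgf4 overexpressing embryos had received 5 pg of Cska-Fgf4 plasmid, which drives zygotic *fgf4* from a cytoskeletal actin promoter. Cic knockdown embryos had received Cic-TALEN mRNAs, 1 ng for the forward nuclease and 1 ng for the reverse one, which together cut the *cic* gene, so these are injected embryos that carry mixtures of mutations rather than a stable line. Control embryos had received water. All values are transcript abundances in TPM, a unit scaled to transcript length and to the size of the library, after a rescaling of each library that the sources used here do not name.

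Bmp proteins are secreted dimers of the Tgf-beta family that bind type I and type II serine/threonine kinase receptors and act through Smad1, Smad5 and Smad9. In the frog embryo Bmp signals are strong on the ventral side and keep ectoderm epidermal, while the dorsal organizer secretes Chordin, Noggin and Follistatin, which bind the ligands and leave dorsal ectoderm free to become neural. Tolloid proteases cut Chordin and release its ligand, and Sizzled, made ventrally, blocks them. Fgf signalling through Erk and the repressor Capicua (Cic), which Erk activity removes, is the axis that the 2 treatments of the study were designed to shift, and the comparisons below ask what each did to this system.

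The injected gene *fgf4* reached 1692, 168 and 95.4 TPM in Fgf4 overexpressing embryos, against at most 4.07 TPM in control embryos, so replicate 1 carried far more of it than replicates 2 and 3. The level of *cic* was 11.8 to 14.7 TPM in Cic knockdown embryos, against 13.4 to 14.7 TPM in control embryos; the nucleases change the gene's DNA, and its transcript level is no check of the knockdown. Libraries with the same replicate number resembled each other, so replicate number was taken as embryo batch and entered in the fit. A gene was called where limma gave an unadjusted p within the limit of 0.01 and a log2 fold change of 0.81 or more in size, either way. By that rule 2.56% of 13437 genes were called in Fgf4 overexpression against control (188 higher, 156 lower), 4.74% of 13598 in Cic knockdown against control (543 higher, 102 lower) and 2.13% of 13607 in Cic knockdown against Fgf4 overexpression (239 higher, 51 lower). Under another scaling these splits moved: to 177 higher and 249 lower for Fgf4 overexpression with median-of-ratios scaling, to 470 and 194 for Cic knockdown with quantile normalization, and to 337 and 24 for the direct contrast with each library rescaled to a common sum. After Benjamini-Hochberg adjustment in limma 0 genes passed 0.05 in each of the 3, while 1784, 2335 and 1843 genes had an unadjusted p under 0.05.

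Marker genes of the tissues of a neurula were present in all groups: neural, epidermal, muscle, notochord and endoderm lists were all expressed. The 3 neural markers summed to 316 to 465 TPM in Fgf4 overexpressing embryos and 187 to 355 TPM in Cic knockdown embryos, against 521 to 620 TPM in control embryos, and *sox2* and *sox3* were called lower in Cic knockdown embryos. With Fgf4 the sum of the notochord markers was higher, at 271 to 432 TPM in Fgf4 overexpressing embryos and 112 to 300 TPM in Cic knockdown embryos, against 134 to 224 TPM in control embryos. Of these markers *tbxt* was called with Fgf4, at a mean of 184 TPM against 53.5 TPM in control embryos. The log2 fold changes of *not* (0.53) and *shh* (-0.23) had opposite signs, without a call. The sum of the 2 epidermal markers in the table was lower with Fgf4, at 3406 to 4733 TPM in Fgf4 overexpressing embryos and 4446 to 7697 TPM in Cic knockdown embryos, against 4815 to 8428 TPM in control embryos. That sum is mostly *krt5.7*, at a mean of 3859 TPM with Fgf4 against 6660 TPM in control embryos. The other marker, *tfap2a*, had means of 212 and 220 TPM, and its groups overlapped. The muscle and endoderm sums overlapped between the groups, but the 5 endoderm markers did not move together. With Fgf4 4 were higher and 1 lower, and in Cic knockdown 3 were higher and 2 lower. *sox17b.2* was called higher in both treatments, with log2 fold changes of 0.90 with Fgf4 and 1.05 in Cic knockdown. *gata6* was lower in both without a call (-1.43 and -1.15). Oocyte and maternal RNAs also differed. Of that list of 18 names, 15 are in the table, and they summed to 188 to 871 TPM in Fgf4 overexpressing embryos and 501 to 590 TPM in Cic knockdown embryos, against 149 to 324 TPM in control embryos. In Cic knockdown all 15 were higher and 11 were called, beside 3.99% of all genes called higher. Of the called genes, *bmp15*, *gdf1*, *cpeb1*, *btg4* and *gdf9* met the limit for testing only through the Cic knockdown group, where they are high. These genes therefore had to be higher. In Fgf4 overexpression 13 of 13 tested were higher and 0 were called in limma, and 871 TPM was Fgf4 replicate 2. Among the 13, *gdf1*, *cpeb1* and *btg4* met the limit only through the Fgf4 group. Genes of the blastula and gastrula stages, 17 of 20 names, summed to 473 to 2534 TPM in Fgf4 overexpressing embryos and 663 to 1419 TPM in Cic knockdown embryos, against 214 to 777 TPM in control embryos, with Fgf4 replicate 2 again the highest. Of 12 tested in each treatment against control, 10 were higher and 2 lower. With Fgf4 3 were called higher and *sox7* lower (-1.43), beside 1.4% and 1.16% of all genes. In Cic knockdown 2 were called higher, beside 3.99%. *gsc* was lower in both without a call (-0.69 and -1.35). *mixl1* and *nodal* met the limit for testing only through the treated group, so they had to be higher. No gene of either list was at 0 in every library of a group, and *vegt* is on both lists. Whether these tissue, maternal and early-stage RNAs have a part in the values below was not tested, and in whole embryos fewer cells of a type and less RNA per cell cannot be told apart.

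Among the 9 listed Bmp genes, the only call in the 3 comparisons was a higher level of *nog* in Cic knockdown embryos. In Fgf4 overexpression none of 9 was called (2.56% of all genes were). Of the 9, 2 had an unadjusted p under 0.05 (13.3% of all genes did), and 1 had groups that did not overlap (6.55% of all genes). Their median log2 fold change was 0.35, beside 0.01 over all genes, with 8 higher and 1 lower. Among the 8 is *grem1*, which met the limit for testing only through the Fgf4 group. In Cic knockdown 1 of 8 was called (4.74% of all genes were). Of the 8, 2 had an unadjusted p under 0.05 (17.2% of all genes) and none had groups that did not overlap (14.3% of all genes). Their median was -0.15, beside -0.02 over all genes, with 2 higher and 6 lower. Both treatments were set against the same 3 control libraries.

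**Figure D1:**
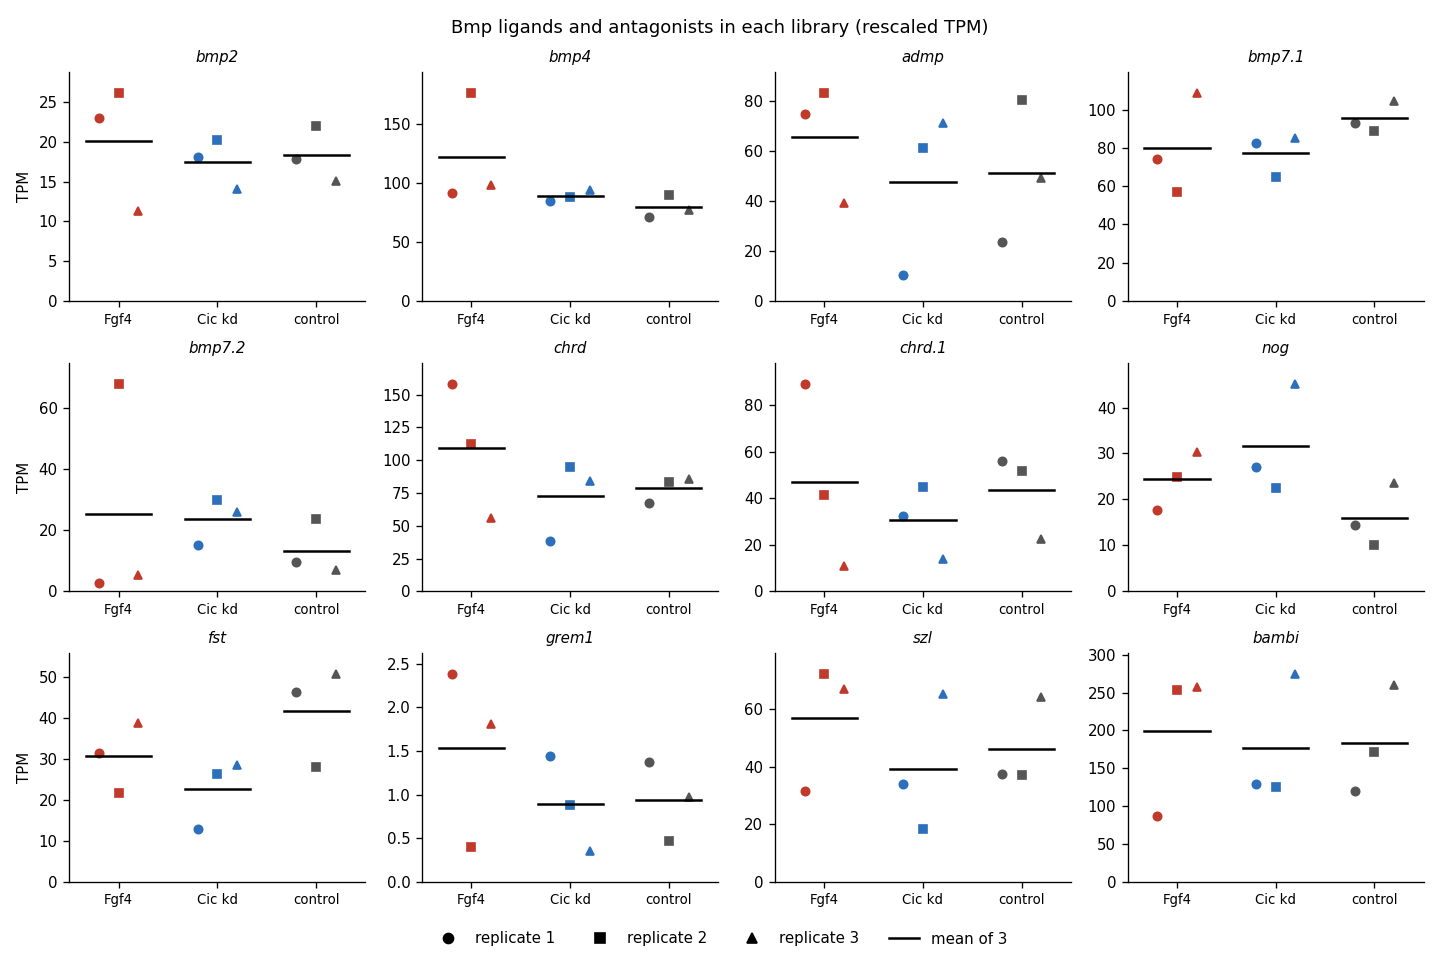
TPM of each gene (y axis, from 0, a different scale in each panel) in Fgf4 overexpressing (red), Cic knockdown (blue) and control (grey) embryos. Points are single libraries, with a shape for each replicate number, and lines are means of 3. The 3 Cic knockdown points of *nog* are 22.5, 27.1 and 45.2 TPM, each above the control point of the same shape.

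Bmp4 is the main ventral ligand of the frog gastrula, and its transcript was higher in every Fgf4 library without reaching a call. It was at 91.7, 176 and 98.4 TPM in Fgf4 overexpressing embryos (replicates 1, 2 and 3), against 71.1, 89.7 and 77.3 TPM in control embryos. All 3 Fgf4 libraries lay above all 3 control libraries, and Fgf4 replicate 2 stood far above the rest. The log2 fold change was 0.56 (SE 0.20, 95% interval 0.10 to 1.02, adjusted p = 0.330). Without Fgf4 replicate 2, the library with the highest maternal sum, it was 0.31. In Cic knockdown embryos *bmp4* was at 84.6, 88.4 and 94.2 TPM, within a narrow range that overlapped the control range, with a log2 fold change of 0.17 (SE 0.20, adjusted p = 0.680). The direct contrast of Cic knockdown with Fgf4 overexpression gave -0.39 (95% interval -0.85 to 0.07, adjusted p = 0.411).

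Bmp2, a close relative of Bmp4 that is also loaded into the egg in frogs, was nearly level. Its transcript was at 23.0, 26.1 and 11.4 TPM in Fgf4 overexpressing embryos, against 17.9, 21.9 and 15.1 TPM in control embryos. Cic knockdown embryos had 18.11, 20.2 and 14.1 TPM, and in every group replicate 2 was the highest and replicate 3 the lowest. The log2 fold changes were 0.07 in Fgf4 overexpression (SE 0.19, adjusted p = 0.907) and -0.07 in Cic knockdown (SE 0.19, adjusted p = 0.882). The sign of the second is not stable, since it was 0.03 with each library rescaled to a common sum.

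Admp is a Bmp made by the organizer itself, on the side opposite Bmp4, and it showed the widest spread of the ligands in the rule. It was at 74.8, 83.0 and 39.1 TPM in Fgf4 overexpressing embryos and at 10.4, 61.1 and 71.3 TPM in Cic knockdown embryos, against 23.7, 80.3 and 49.3 TPM in control embryos. The 3 groups overlapped. Within replicate numbers the log2 ratio of Fgf4 to control was 1.64, 0.05 and -0.33, and that of Cic knockdown to control was -1.16, -0.39 and 0.53. Neither comparison was called, with log2 fold changes of 0.45 (SE 0.58, adjusted p = 0.774) in Fgf4 overexpression and -0.34 (SE 0.58, adjusted p = 0.791) in Cic knockdown. The widest departures both came from replicate 1, in which *admp* was high with Fgf4 and low with Cic knockdown.

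The transcripts of Bmp7, which forms heterodimers with Bmp4 and Bmp2, were listed under 2 genes of unlike behaviour. The *bmp7.1* gene was at 74.1, 57.0 and 109 TPM in Fgf4 overexpressing embryos and at 82.8, 64.7 and 85.2 TPM in Cic knockdown embryos, against 93.2, 89.1 and 105 TPM in control embryos. All 3 Cic knockdown libraries lay below all 3 control libraries, by a small margin: the log2 fold change was -0.31 (SE 0.16, adjusted p = 0.374), and in Fgf4 overexpression -0.30 (SE 0.16, adjusted p = 0.459). The *bmp7.2* gene was at 2.81, 67.9 and 5.37 TPM in Fgf4 overexpressing embryos and at 15.3, 29.9 and 26.0 TPM in Cic knockdown embryos, against 9.49, 23.6 and 6.82 TPM in control embryos. Its replicate 2 libraries were the highest of each group, and Fgf4 replicate 2 exceeded every other library. Each Cic knockdown library was above the control library of its number, but the log2 fold change of 0.95 (SE 0.66, adjusted p = 0.487) was within the error, and in Fgf4 overexpression it was -0.14 (SE 0.66, adjusted p = 0.945).

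Noggin binds Bmp4 and Bmp2 tightly and is secreted by the organizer and, at neurula stages, by the notochord. Its transcript was the member that rose in Cic knockdown embryos. It was at 27.1, 22.5 and 45.2 TPM in Cic knockdown embryos, against 14.5, 10.1 and 23.7 TPM in control embryos. Taken across replicate numbers the groups overlapped, since control replicate 3 was above Cic knockdown replicate 2, yet within each number the treated library was the higher by close to the same amount, with log2 ratios of 0.88, 1.12 and 0.92. The log2 fold change was 0.97 (SE 0.22, 95% interval 0.47 to 1.48, adjusted p = 0.103), a fold change of 1.96. This call rests on the replicate block: without it the p missed the limit (adjusted p = 0.608). It was kept in 7 of 12 fits that left out a library or a replicate number, and lost without control replicate 2 (log2 fold change 0.78), Cic knockdown replicate 1 (0.93), Cic knockdown replicate 3 (0.93), all libraries of replicate 1 (1.02) or all of replicate 3 (1.00). In each of these the p missed the limit, and without control replicate 2 the fold did too. The list of oocyte and maternal RNAs was higher in these same libraries, and its part in the level of *nog* was not tested.

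In Fgf4 overexpressing embryos *nog* was at 17.7, 24.9 and 30.4 TPM, each above the control library of its number, with log2 ratios of 0.28, 1.27 and 0.36. The log2 fold change of 0.63 (SE 0.22, 95% interval 0.13 to 1.14, adjusted p = 0.325) did not reach a call. It was 0.36 without Fgf4 replicate 2 and 0.32 without all libraries of replicate 2. The difference between the treatments was not called either: the direct contrast gave 0.34 (SE 0.22, 95% interval -0.17 to 0.84, adjusted p = 0.487), so the call in Cic knockdown alone does not show that the 2 treatments differ for *nog*. The related gene *nog2*, which carries *nog* as a synonym in the reference gene table, was at 0.0808 to 1.61 TPM in Fgf4 overexpressing embryos and 0.437 to 0.486 TPM in Cic knockdown embryos, against 0.163 to 3.67 TPM in control embryos. Unlike *nog* it was lower, at -0.79 (SE 0.53, adjusted p = 0.553) with Fgf4 and -1.18 (SE 0.53, adjusted p = 0.308) in Cic knockdown. Neither was called, though 2 of 12 fits with libraries left out called it in Cic knockdown. It met the limit for testing only through the control group, where it is high, so it had to be lower.

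Follistatin binds Activin most tightly and Bmps as well, and its transcript was the only member lower in all 6 within-number ratios. It was at 31.4, 21.6 and 38.7 TPM in Fgf4 overexpressing embryos and at 12.8, 26.4 and 28.4 TPM in Cic knockdown embryos, against 46.2, 28.0 and 50.7 TPM in control embryos. Ranges overlapped in both comparisons through control replicate 2, the lowest control library. In Cic knockdown the log2 fold change was -0.91 (SE 0.31, 95% interval -1.64 to -0.18, adjusted p = 0.221), which is past the fold limit but not the p limit. The replicates were uneven, with log2 ratios of -1.81, -0.09 and -0.82, and the gene would be called without Cic knockdown replicate 2 (-1.30) or without replicate 2 (-1.32). In Fgf4 overexpression the ratios were more even, at -0.55, -0.37 and -0.39, and the log2 fold change was -0.43 (SE 0.31, 95% interval -1.17 to 0.30, adjusted p = 0.578).

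Chordin is the most abundant of the organizer antagonists here, and its level varied widely among the libraries of both treatments. It was at 158, 113 and 56.0 TPM in Fgf4 overexpressing embryos and at 38.5, 94.7 and 83.9 TPM in Cic knockdown embryos, against 67.2, 83.5 and 85.9 TPM in control embryos. The highest and the lowest of the 9 libraries were both of replicate 1, Fgf4 and Cic knockdown. The log2 ratio of Fgf4 to control was 1.23, 0.43 and -0.61 in replicates 1, 2 and 3, and the log2 fold change was 0.35 (SE 0.43, 95% interval -0.67 to 1.37, adjusted p = 0.767). In Cic knockdown it was -0.22 (SE 0.43, adjusted p = 0.825). The table also lists *chrd.1*, for which *chrd* is an older symbol, and reads may be divided between these rows. The *chrd.1* row was at 89.4, 41.3 and 10.9 TPM in Fgf4 overexpressing embryos and at 32.4, 45.1 and 14.1 TPM in Cic knockdown embryos, against 56.0, 51.9 and 22.5 TPM in control embryos. Each Cic knockdown library was below the control library of its number, with a log2 fold change of -0.54 (SE 0.35, adjusted p = 0.454).

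Gremlin 1, a Dan-family antagonist best known from limb buds, was close to the limit of testing. It was at 2.38, 0.398 and 1.80 TPM in Fgf4 overexpressing embryos and at 1.44, 0.878 and 0.355 TPM in Cic knockdown embryos, against 1.38, 0.471 and 0.969 TPM in control embryos. The groups overlapped, and in Fgf4 overexpression the log2 fold change was 0.38 (SE 0.42, adjusted p = 0.731).

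Sizzled and Bambi are both products of Bmp signalling that limit it, Sizzled outside the cell and Bambi as a receptor-like protein that lacks the kinase. Sizzled transcript was at 31.6, 72.3 and 67.0 TPM in Fgf4 overexpressing embryos and at 33.8, 18.5 and 65.5 TPM in Cic knockdown embryos, against 37.5, 37.2 and 64.1 TPM in control embryos. Replicates 1 and 3 were nearly level across the groups, and replicate 2 alone was high with Fgf4 and low with Cic knockdown. The log2 fold change was 0.26 (SE 0.37, adjusted p = 0.802) in Fgf4 overexpression and -0.37 (SE 0.37, adjusted p = 0.628) in Cic knockdown. *bambi*, the most abundant of the genes, was at 86.9, 253 and 257 TPM in Fgf4 overexpressing embryos and at 129, 125 and 275 TPM in Cic knockdown embryos, against 120, 171 and 260 TPM in control embryos. Its replicate 3 libraries lay within 257 to 275 TPM whatever the treatment. The log2 fold changes were 0.03 (SE 0.27, 95% interval -0.61 to 0.66, adjusted p = 0.977) in Fgf4 overexpression and -0.09 (SE 0.27, 95% interval -0.73 to 0.55, adjusted p = 0.886) in Cic knockdown, and the sign of each turned with quantile normalization or rescaling to a common sum.

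**Figure D2:**
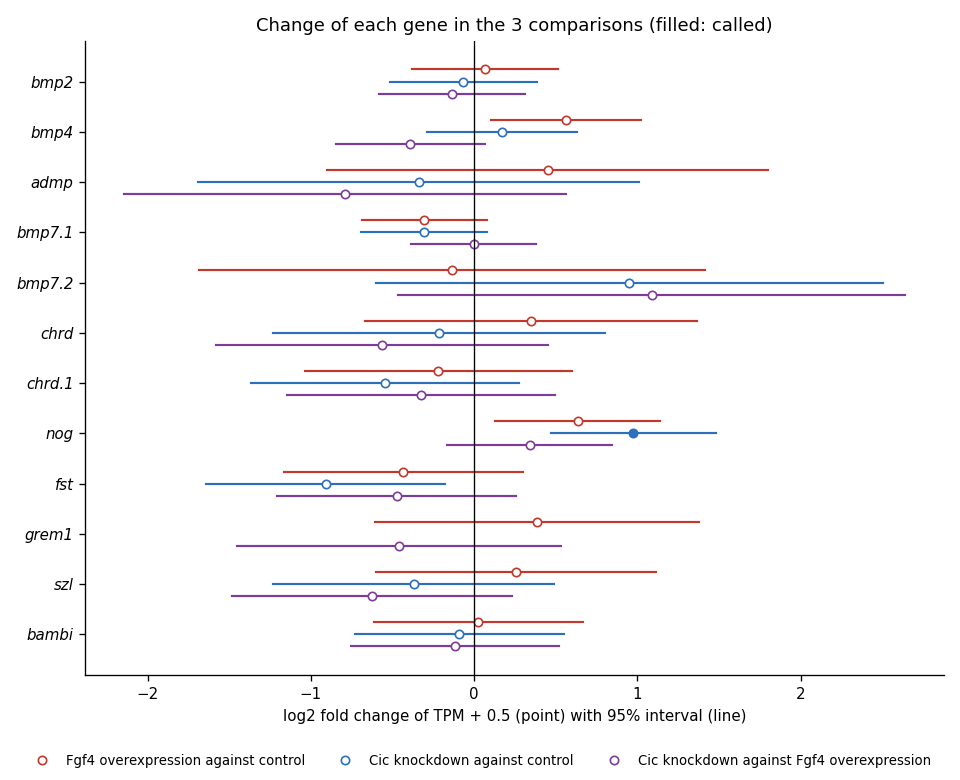
Log2 fold change of TPM + 0.5 (x axis, points) with its 95% interval from limma (lines) for Fgf4 overexpression against control (red), Cic knockdown against control (blue) and Cic knockdown against Fgf4 overexpression (purple). The one filled point is the call, *nog* in Cic knockdown at 0.97, while the intervals of *admp* and *bmp7.2* span more than those of the other genes.

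Cic knockdown set directly against Fgf4 overexpression gave no call among the 9 genes (2.13% of all genes were called). None had an unadjusted p under 0.05 (13.5% of all genes) and none had groups that did not overlap (6.47% of all genes). The median log2 fold change was -0.46, beside -0.02 over all genes, with *nog* the one gene higher in Cic knockdown. That median is the value of *grem1*, which met the limit for testing only through the Fgf4 group, where it is high. The largest differences were those of *admp* (-0.79, SE 0.58, 95% interval -2.14 to 0.56), *szl* (-0.63, SE 0.37, 95% interval -1.49 to 0.23) and *chrd* (-0.56, SE 0.43, 95% interval -1.58 to 0.45). Rescaling each library to a common sum shifted the median of all genes in this contrast by 0.13 on the log2 scale.

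**Figure D3:**
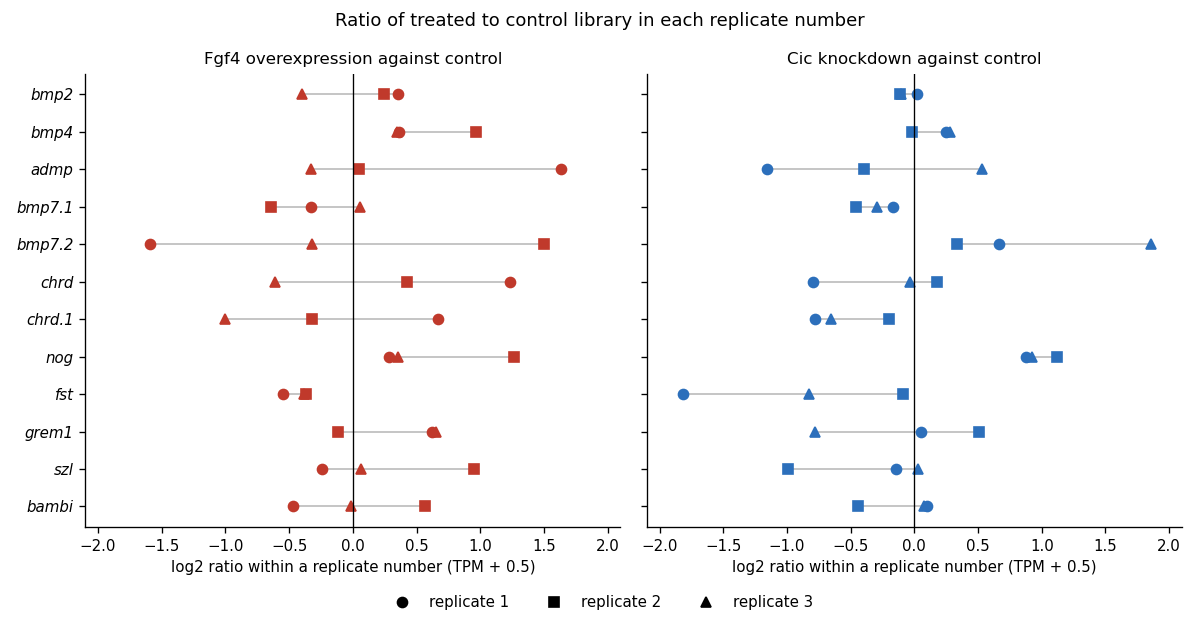
Log2 ratio of TPM + 0.5 in the treated library to that in the control library of the same replicate number (x axis), for Fgf4 overexpression (left) and Cic knockdown (right), with a shape for each replicate number. The 3 Cic knockdown points of *nog* lie between 0.88 and 1.12, whereas those of *chrd* with Fgf4 run from -0.61 to 1.23.

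The levels of the genes in control embryos formed a wide scale. *bambi* was highest at 184 ± 70.8 TPM (SD, n = 3), followed by *bmp7.1* at 95.6 ± 8.01, *bmp4* at 79.4 ± 9.48, *chrd* at 78.9 ± 10.2, *admp* at 51.1 ± 28.3, *szl* at 46.3 ± 15.5, *chrd.1* at 43.4 ± 18.3 and *fst* at 41.7 ± 12.01 TPM. *bmp2* at 18.3 ± 3.43, *nog* at 16.1 ± 6.93 and *bmp7.2* at 13.3 ± 9.03 TPM came next, and *grem1* was last at 0.939 ± 0.453 TPM. Neighbours in this order had ranges that did not overlap only between *bambi* and *bmp7.1*, between *fst* and *bmp2*, and between *bmp7.2* and *grem1*. Chordin transcript was thus far above Noggin transcript per length, and *bmp4* and *bmp7.1* were the main ligand transcripts.

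Summed over the 5 ligand genes, the level was 266, 410 and 263 TPM in Fgf4 overexpressing embryos and 211, 264 and 291 TPM in Cic knockdown embryos, against 215, 305 and 253 TPM in control embryos. Summed over the 5 extracellular inhibitors (*chrd*, *nog*, *fst*, *grem1* and *szl*), it was 241, 232 and 194 TPM in Fgf4 overexpressing embryos and 114, 163 and 223 TPM in Cic knockdown embryos, against 167, 159 and 225 TPM in control embryos. Both sums overlapped between all groups. The ligand sum holds *bmp2*, *bmp4*, *admp*, *bmp7.1* and *bmp7.2*. It leaves out *admp2*, a second copy of *admp*, with a mean of 125 TPM in Cic knockdown embryos against 30.5 TPM in control embryos. The inhibitor sum leaves out *chrd.1*, at a mean of 43.4 TPM in control embryos. The overlap and the ratio that follows hold for the summed genes alone. The ratio of inhibitors to ligands averaged 0.736 ± 0.171 in Fgf4 overexpressing embryos and 0.641 ± 0.117 in Cic knockdown embryos, against 0.729 ± 0.188 in control embryos (SD, n = 3 each), differences smaller than the spread within a group.

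The shares of variation that went with embryo batch and with treatment differed between the genes. Of the variance over the 9 libraries on the log2 scale, replicate number took 78.6% for *bmp2* and 77.0% for *bambi*, above the median of 57.0% over 11156 genes, and treatment took 2.46% and 0.730%. Treatment took 48.7% for *nog*, 45.3% for *bmp4* and 44.8% for *fst*, above the median of 16.7%. For *chrd* 71.5% of the variance went with neither.

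Some of these genes moved together from library to library. With the mean of each replicate number removed, Pearson's r over the 9 libraries was 0.95 between *chrd* and *admp*, both products of the organizer, and 0.89 between *szl* and *bambi*, both products of Bmp signalling. It was 0.84 between *chrd* and *chrd.1*, 0.79 between *admp* and *chrd.1*, 0.75 between *bmp4* and *szl*, and 0.75 between the ligand *bmp2* and *chrd*. The most negative values were -0.83 between *nog* and *bmp7.1*, -0.82 between *grem1* and *bmp7.2* and -0.72 between *nog* and *fst*. Without that removal the positive values, in the same order, were 0.84, 0.84, 0.49, 0.11, 0.42 and 0.54, and the 3 negative ones -0.01, -0.86 and -0.19. The other organizer antagonists did not follow *chrd* and *admp* as closely. With the means removed, r with *chrd* and with *admp* was -0.11 and -0.20 for *nog*, and 0.45 and 0.42 for *fst*. The points share libraries and treatments, so these are descriptions. Among 11156 genes, the 3 most like *fst* by the same measure were *gsc*, the organizer homeobox gene (r = 0.97), *frzb2* (0.96) and *napb* (0.96). Those most like *admp* were *taf1a* (0.99), *tbxt.2* (0.99), a copy of the notochord and posterior mesoderm gene Brachyury, and *gatad2a* (0.98). Those most like *nog* were *grip2*, *map3k4* and *abr* (0.99 each), and those most like *chrd* were *arrb2* (0.98), *heatr6* (0.98) and *rap1b* (0.97). For *bmp4* they were *ccnd2*, *rab5c* and *idh3a* (0.96 to 0.97), for *bmp2* *pfdn4*, *amt* and *nsa2* (0.96 to 0.97), for *szl* *gcfc2*, *dennd4b* and *uqcrq* (0.96 to 0.97), for *bambi* *ccdc28a*, *myo1e.2* and *piwil1* (0.95 to 0.96) and for *grem1* *rhbdf1*, *fxyd6* and *dst* (0.97 to 0.98).

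Around these genes, other ligands and secreted modulators gave few calls. Of 13 further ligand names, 7 genes were tested in Fgf4 overexpression and none was called, beside 1.4% of all genes called higher and 1.16% called lower. Of 8 tested in Cic knockdown 1 was called, beside 3.99% called higher and 0.75% called lower. That gene was *bmp15*, an oocyte growth factor that also stands on the oocyte list, at 1.33, 1.16 and 2.51 TPM in Cic knockdown embryos, against 0.0777, 0 and 0.0722 TPM in control embryos. It met the limit for testing only through the Cic knockdown group, where it is high, so it had to differ. That call was lost without control replicate 2, control replicate 3, Cic knockdown replicate 1 or replicate 1, and without Cic knockdown replicate 3 or replicate 3 it was not tested. A second copy of *admp*, *admp2*, reached 143, 130 and 104 TPM in Cic knockdown embryos and 14.3, 162 and 24.2 TPM in Fgf4 overexpressing embryos, against 26.2, 33.4 and 31.9 TPM in control embryos. Its Cic knockdown and control libraries did not overlap, but the log2 fold change of 2.02 (SE 0.63, adjusted p = 0.188) was just outside the p limit. It was picked out after its values were seen.

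Of 26 names of further antagonists and modulators, 12 genes were tested in Fgf4 overexpression with no call, and 11 in Cic knockdown with 1 called higher and 1 lower. Over all genes 2.56% were called in Fgf4 overexpression, and in Cic knockdown 3.99% were called higher and 0.75% lower. *dand5* (Coco), a maternal inhibitor of Bmp, Nodal and Wnt ligands in frogs, was at 17.6, 8.54 and 8.33 TPM in Cic knockdown embryos, against 8.67, 2.86 and 2.28 TPM in control embryos. Its log2 fold change was 1.36 (SE 0.32, adjusted p = 0.116), with control replicate 1 as the one library inside the treated range. *sfrp2*, a secreted Frizzled-related protein, was at 37.4, 39.3 and 19.8 TPM in Cic knockdown embryos, against 137, 60.6 and 57.9 TPM in control embryos. These groups did not overlap, and the log2 fold change was -1.33 (SE 0.38, adjusted p = 0.166). With Fgf4 both genes moved the same way without a call in limma. *dand5* was at 0.78 (SE 0.32, adjusted p = 0.362) and *sfrp2* at -1.17 (SE 0.38, adjusted p = 0.320), again with no overlap for *sfrp2*. The direct contrast of the treatments called neither (0.58 and -0.16), so the calls do not show that the treatments differ for them. The study, by its own fit, lists *sfrp2* as significantly lower in both treatments. The call of *dand5* was absent without control replicate 1, control replicate 3, Cic knockdown replicate 2, Cic knockdown replicate 3 or replicate 3, and without the replicate block (adjusted p = 0.915). That of *sfrp2* was made in 4 of 12 such fits, those without control replicate 2, Fgf4 replicate 1, Fgf4 replicate 3 or Cic knockdown replicate 2. The 3 tolloid proteases had no call: all 3 were lower in Cic knockdown embryos, led by *tll1* (-0.72, SE 0.21, adjusted p = 0.167), which did not reach the fold limit.

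Among the receptors, *bmpr1b*, a type I receptor for Bmps, fell in Fgf4 overexpressing embryos. It was at 12.6, 6.70 and 24.5 TPM in Fgf4 overexpressing embryos and at 13.7, 16.7 and 11.7 TPM in Cic knockdown embryos, against 48.3, 32.1 and 29.7 TPM in control embryos. All 6 treated libraries lay below all 3 control libraries. The study, by its own fit, lists *bmpr1b* as significantly lower in both treatments. In limma the log2 fold change was -1.45 (SE 0.42, adjusted p = 0.302) in Fgf4 overexpression, a call, and -1.34 (SE 0.42, adjusted p = 0.187) in Cic knockdown, just short of one. The call with Fgf4 was made in 4 of 12 fits with libraries left out, those without control replicate 3, Fgf4 replicate 3, Cic knockdown replicate 2 or replicate 3, and one in Cic knockdown appeared without Fgf4 replicate 2, Fgf4 replicate 3, Cic knockdown replicate 2 or replicate 3. *eng*, a co-receptor of blood vessel endothelium, was called higher with Fgf4, at 12.39, 0.896 and 1.05 TPM in Fgf4 overexpressing embryos, against 1.49, 0.309 and 0.212 TPM in control embryos. It met the limit for testing only through the Fgf4 group, where it is high, so it had to differ, and the call was lost without the replicate block. The groups overlapped, replicate 1 was the high library of each, and of 10 fits with libraries left out that tested it, 1 called it, the one without Fgf4 replicate 2. The other 8 of 10 receptors tested with Fgf4 and all 9 tested in Cic knockdown were not called. None of 16 Smads and intracellular regulators was called in either comparison. Beside these receptor and Smad counts, 2.56% of all genes were called with Fgf4 and 4.74% in Cic knockdown. The inhibitory Smad *smad6* was lower in every replicate number of both, by log2 fold changes of -0.47 (SE 0.15, adjusted p = 0.320) in Fgf4 overexpression and -0.49 (SE 0.15, adjusted p = 0.18) in Cic knockdown. It was picked out after its values were seen. On the same list *smad4.2*, *ctdsp1* and *ctdsp2* were also lower in every replicate number of both treatments, without a call.

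Known Bmp target genes gave the most calls of these lists, in both directions, all of them with Fgf4. Of 24 tested, 5 rose and 2 fell in Fgf4 overexpressing embryos, beside 1.4% of all genes called higher and 1.16% called lower. Of the 5, all but *evx1* are *ventx* genes of 1 family. The median log2 fold change was 0.01, as over all genes (0.01). The *ventx* genes encode homeobox repressors that specify ventral fates below Bmp4. *ventx2.1* was at 381, 750 and 656 TPM in Fgf4 overexpressing embryos and at 416, 303 and 597 TPM in Cic knockdown embryos, against 196, 266 and 371 TPM in control embryos. Its Fgf4 and control libraries did not overlap, and the log2 fold change was 1.09 (SE 0.26, adjusted p = 0.288). *ventx3.2* was at 135, 169 and 133 TPM in Fgf4 overexpressing embryos and at 87.0, 72.6 and 113 TPM in Cic knockdown embryos, against 31.2, 72.0 and 68.2 TPM in control embryos, a log2 fold change of 1.42 (SE 0.28, adjusted p = 0.287) with Fgf4. *ventx2.2* (1.18, SE 0.26) and *ventx1.2* (1.16, SE 0.32) rose by like amounts with Fgf4, *ventx1.1* (1.13, SE 0.37) and *ventx3.1* (0.25, SE 0.36) were not called, and 5 of the 6 had log2 fold changes of 0.65 to 0.91 in Cic knockdown without a call. Without the replicate block the calls with Fgf4 of *ventx1.2*, *ventx2.1* and *ventx2.2* were lost, and that of *ventx3.2* stayed. With libraries left out, these genes, in the order given, were called with Fgf4 in 4, 6, 7 and 10 of 12 fits. The Fgf4 and control libraries of *ventx1.2* overlapped. *ventx1.2* is also on the list of blastula and gastrula stage genes.

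The remaining target calls concern mesoderm. *evx1*, a homeobox gene of posterior and ventral mesoderm, was at 102, 65.7 and 51.1 TPM in Fgf4 overexpressing embryos, against 19.7, 30.2 and 31.2 TPM in control embryos, with a log2 fold change of 1.39 (SE 0.34, adjusted p = 0.300). The paper names *evx1* as a known target of Fgf regulation. *hand1*, a gene of lateral plate and heart mesoderm, was at 8.99, 3.33 and 37.3 TPM in Fgf4 overexpressing embryos and at 24.3, 17.5 and 10.95 TPM in Cic knockdown embryos, against 165, 76.4 and 68.1 TPM in control embryos. Every treated library was below every control library, and the log2 fold change was -3.10 (SE 0.72, adjusted p = 0.288) with Fgf4 and -2.47 (SE 0.72, adjusted p = 0.170) in Cic knockdown, which just missed the p limit. *tal1*, a regulator of primitive blood, was at 0.904, 0.954 and 4.07 TPM in Fgf4 overexpressing embryos, against 19.4, 4.72 and 10.1 TPM in control embryos, with a log2 fold change of -2.29 (SE 0.50, adjusted p = 0.287). The direct targets *id2* and *id3* and the ectodermal targets *tfap2a*, *dlx3*, *msx1* and *gata3* were not called in either treatment. No call does not mean level: with Fgf4 *id3* was higher (0.31) and *gata3* lower (-0.49) in all 3 replicate numbers. *foxi1*, also without a call, was lower in all 3 with Fgf4, at -2.25 (SE 0.83, adjusted p = 0.343 in limma), and at -0.06 (SE 0.83) in Cic knockdown. In Cic knockdown none of the 24 was called in limma, with 15 higher and 9 lower and a median of 0.14 beside -0.02.

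The number of target genes called with Fgf4 depended on single libraries. It was 5 higher and 2 lower without Fgf4 replicate 3 or Cic knockdown replicate 1, and 6 and 2 without Cic knockdown replicate 2. It was 1 and 0 without control replicate 1, 3 and 1 without control replicate 2, 3 and 2 without control replicate 3, 4 and 2 without Cic knockdown replicate 3, and 1 and 1 without Fgf4 replicate 1 or Fgf4 replicate 2. Without replicate 1 it was 0 and 0, without replicate 2 it was 4 and 0, and without replicate 3, or without the replicate block, 2 and 2. In Cic knockdown 5 *ventx* genes were called higher and *hand1* lower without Cic knockdown replicate 2, and 4 *ventx* genes higher without replicate 2. *hand1* was also called lower there without control replicate 3, Fgf4 replicate 2, Fgf4 replicate 3 or replicate 3, and without the replicate block. *tal1* was called lower in Cic knockdown in 2 of 12 fits with libraries left out. Within replicate 2 the Cic knockdown to control ratios of *ventx2.2* and *ventx3.2* were 0.02 and 0.01 on the log2 scale, against 1.40 and 1.46 in replicate 1. In Cic knockdown against Fgf4 overexpression 1 of 10 receptors, *eng*, and 1 of 24 targets, *lmo2*, were called lower. Over all genes 2.13% were called, with 51 of 13607 called lower. *eng* met the limit for testing in this contrast only through the Fgf4 group, where it is high, so it had to be lower. For the other 23 targets the calls with Fgf4 do not show that the treatments differ. *lmo2*, a partner of Tal1 in blood formation that was picked out after its values were seen, was at 73.3, 42.5 and 42.8 TPM in Cic knockdown embryos, against 775, 63.1 and 130 TPM in Fgf4 overexpressing embryos. Its mean in control embryos was 73.4 TPM. The log2 ratios of Fgf4 to control were 2.96, 0.98 and 0.54 in replicates 1, 2 and 3, without a call in that comparison. Its highest value was in Fgf4 replicate 1, the library with the most *fgf4*, and whether the 2 are linked was not tested.

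**Figure D4:**
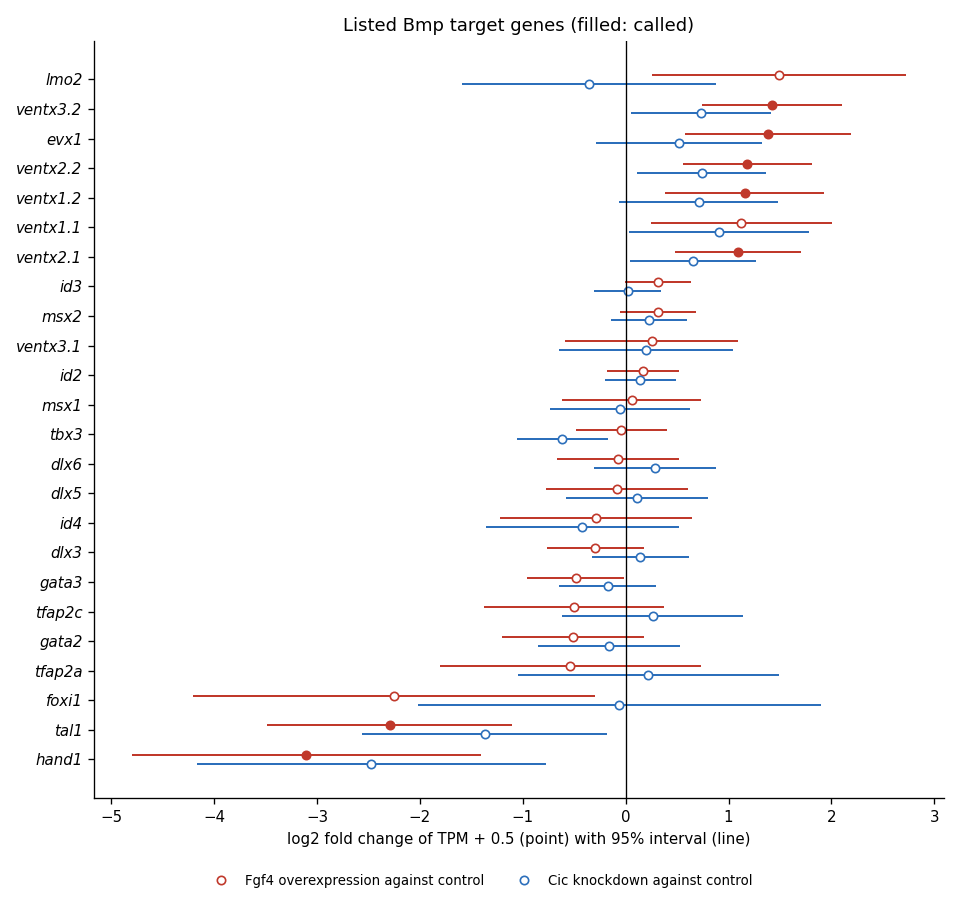
Log2 fold change of TPM + 0.5 (x axis) with its 95% interval (lines) for the 24 tested Bmp target genes, in Fgf4 overexpression (red) and Cic knockdown (blue) against control, ordered by the change with Fgf4. The 7 filled points are calls, all of them with Fgf4, from *ventx3.2* at 1.42 to *hand1* at -3.10.

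Set beside the ligands, the 6 *ventx* genes together held 1189, 2365 and 2033 TPM in Fgf4 overexpressing embryos and 1213, 969 and 1969 TPM in Cic knockdown embryos, against 482, 932 and 1148 TPM in control embryos. All 3 Fgf4 libraries were above all 3 control libraries, as were those of *bmp4*, but the ligand sum overlapped. The *ventx* sum of Cic knockdown replicate 2 was the nearest to the control range and within it. The sums of blastula and gastrula stage genes and of maternal RNAs moved in the same direction as the *ventx* sum. These sums share genes: *ventx1.2* is also in the blastula and gastrula sum, and *vegt* is in that sum and the maternal one. The mean of *vegt* was 224 TPM in Fgf4 overexpressing and 140 TPM in Cic knockdown embryos, against 49.7 TPM in control embryos. Agreement between the sums is thus partly built in, and the part of these RNAs in the *ventx* sum was not tested.

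**Figure D5:**
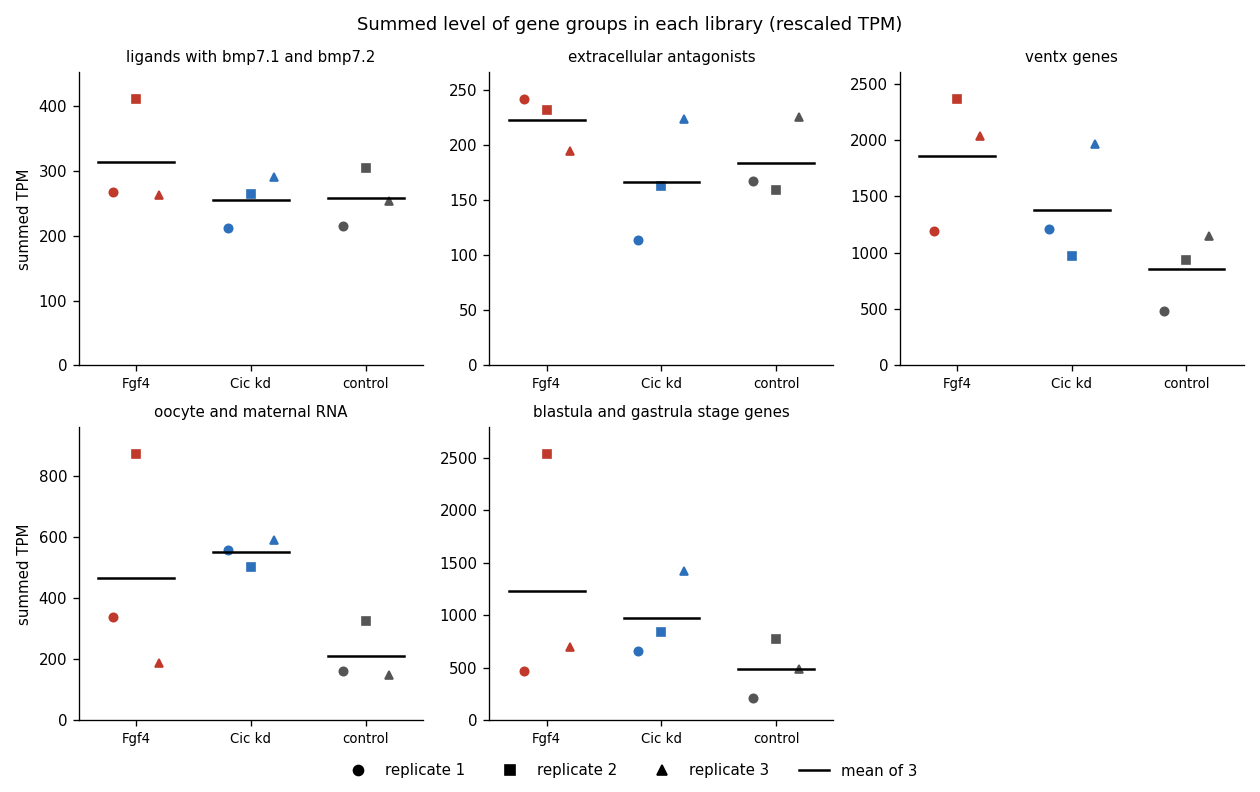
Summed TPM (y axis, from 0) of the 5 ligands, the 5 extracellular inhibitors, the 6 *ventx* genes, the oocyte and maternal list and the blastula and gastrula list in Fgf4 overexpressing (red), Cic knockdown (blue) and control (grey) embryos; points are libraries and lines are means of 3. The ligand and inhibitor sums overlap between groups, while the maternal list is at 501 TPM or more in every Cic knockdown library and at 324 TPM or less in every control library.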

How the data were processed

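Poly(A) RNA of 9 whole-embryo libraries was analysed, 3 per group. The authors trimmed reads with cutadapt, quantified them with Salmon against the *X. tropicalis* reference genome (version 9.1) and made gene-level values in sleuth; versions of these tools and the annotation release are not given in the sources used here. The deposited table holds a signal per gene and library. Its mean columns, the authors' own and not used here, name the unit as TPM. The libraries sum to between 871757 and 1162165, so a factor per library was applied after TPM. The study gives a read depth per sample. The counts behind each value are unknown because TPM keeps none, and no counting error is given.

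Values were taken as log2(TPM + 0.5), and fold changes are on that scale, which understates changes of low genes. Genes with a mean of at least 1.5 in a group of the comparison were fitted with limma 3.58.1 (R 4.3.3), with condition and replicate number over all 9 libraries and a prior variance that depends on mean expression (residual degrees of freedom 4, prior 3.31). Tests are two-sided, with Benjamini-Hochberg adjustment over all genes tested. The limits of p and fold are numbers taken from the study's methods. The script was tested on simulated data.

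The study's model holds a batch term, and replicate numbers were taken as embryo batches. As a check, libraries of one number deviated together from the means of their groups, with correlations of 0.36 to 0.80 over 11156 genes, against 0.41 at most between different numbers. Nothing else states that libraries are separate clutches, so p values measure the spread between these samples.

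The genes and the lists were chosen with earlier results of these data known. Every gene in the rule is named, as is each listed gene called in either treatment against control, and for each rule gene the 3 genes of most similar pattern. A planned search of promoters for motifs was not run, and no sequence or coordinate is given.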

Additional observations from a re-analysis of the deposited data

How the results depend on the processing

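No replicate block left 121 calls among all genes for Fgf4 overexpression, 371 for Cic knockdown and 143 for the direct contrast, and 0 among the Bmp genes in Cic knockdown. A minimum mean of 5 TPM gave 428 and 186 calls for Cic knockdown and the direct contrast, and a fit of only the 6 libraries compared gave 159 for the direct contrast. At an adjusted p of at most 0.05 each comparison had 0 calls, as had the Bmp genes in Cic knockdown. Leaving out libraries gave 86 to 1056 calls for Fgf4 overexpression (fewest without control replicate 1, most without Fgf4 replicate 3), 224 to 1170 for Cic knockdown (without replicate 1 and without Cic knockdown replicate 2) and 50 to 713 for the direct contrast (without replicate 1 and without Fgf4 replicate 3). Among the Bmp genes it gave 0 to 2 calls in Cic knockdown and 0 in the other comparisons. The log2 fold change of *nog* in Cic knockdown was 0.78 to 1.09 over these fits, and its adjusted p was 0.0379 to 0.625 over all alternatives. The cause of these shifts was not tested.

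Signs turned for values that were within their error. With quantile normalization *bambi* was at -0.018, 0.0032 and 0.021 for Fgf4 overexpression, Cic knockdown and the direct contrast. With each library rescaled to a common sum it was at -0.0075, 0.0049 and 0.012, and *bmp2* in Cic knockdown was at 0.027. With libraries left out in turn, the log2 fold change in Fgf4 overexpression ran from -0.076 to 0.30 for *bmp2*, from -0.24 to 0.87 for *chrd*, from -0.25 to 0.56 for *szl*, from -0.33 to 0.32 for *bambi*, from -0.35 to 1.06 for *admp*, from -1.11 to 0.59 for *bmp7.2*, from -0.72 to 0.17 for *chrd.1* and from -0.18 to 0.51 for *ventx3.1*. In Cic knockdown it ran from -0.16 to 0.060 for *bmp2*, from -0.55 to 0.29 for *chrd*, from -0.62 to 0.11 for *szl*, from -0.31 to 0.22 for *bambi*, from -0.97 to 0.36 for *admp* and from -0.39 to 0.56 for *ventx3.1*. In the direct contrast it ran from -1.14 to 0.17 for *chrd*, from -0.99 to 0.031 for *szl*, from -0.46 to 0.33 for *bambi* and from -1.62 to 0.21 for *admp*. The planned promoter search was not run. The unknown counts behind their values limit what can be said of *grem1* and *bmp15*.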
